A study of Mus musculus with 51 samples.

Results

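Notch signalling was followed through 10 genes: the 4 mouse receptors (Notch1, Notch2, Notch3 and Notch4), 4 of their ligands (Dll1, Dll4, Jag1 and Jag2) and 2 target genes (Hes1 and Hey1). The genes were chosen by symbol. All 10 were found among the 36528 identifiers of the count table and passed the filter on low counts in every fraction. The libraries came from lungs of male C57/B6 mice that had received saline or bleomycin, a DNA-damaging drug that causes lung fibrosis, into the trachea and were sampled at day 14. Lung cells were sorted by flow cytometry into CD31+ (endothelial), CD45+ (leukocyte), EpCAM+ (epithelial) and triple-negative cells, which carry none of the 3 surface markers. The 51 libraries comprised 5 saline and 7 bleomycin CD31+ libraries and 5 saline and 8 bleomycin libraries of each other fraction. The study's text gives 5 saline and 8 bleomycin mice, so fractions share animals, but the labels do not say which libraries came from the same mouse. No source used here gives their age.

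Notch receptors are single-pass membrane proteins that bind ligands of the Delta-like and Jagged families on a neighbouring cell. Binding exposes the receptor to an ADAM protease and then to gamma-secretase, which frees the intracellular domain. That domain moves to the nucleus, joins the DNA-binding protein RBPJ and a Mastermind-like coactivator, and switches on targets such as the Hes and Hey repressor genes. The pathway is known for its parts in arterial and tip-cell choice in endothelium, in the upkeep of mural cells, in the choice between secretory and ciliated airway cells, and in lymphocyte development. The libraries report RNA only, and no protein, cleavage or signalling was measured.

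Promoter sequences from RefSeq (GRCm38.p6) were found for 8 of the 10 genes, and not for Hes1 and Hey1. The 250 bases upstream of the start are shown for Dll4 and Notch3, whose changes with bleomycin were the largest among ligands in CD31+ libraries and among receptors, and for Hey2, a further target gene described with the pathway. Dll4 lies at chr2:119325534-119325783 (plus strand), Notch3 at chr17:32166891-32167140 (minus strand) and Hey2 at chr10:30842784-30843033 (minus strand). Capitals mark the RBPJ core TGGGAA, searched on both strands, whose reverse complement reads TTCCCA.
Dll4: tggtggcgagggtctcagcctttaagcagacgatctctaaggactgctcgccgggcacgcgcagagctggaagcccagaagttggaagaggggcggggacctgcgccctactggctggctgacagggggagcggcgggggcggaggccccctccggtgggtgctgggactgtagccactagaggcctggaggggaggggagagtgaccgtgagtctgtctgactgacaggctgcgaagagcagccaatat
Notch3: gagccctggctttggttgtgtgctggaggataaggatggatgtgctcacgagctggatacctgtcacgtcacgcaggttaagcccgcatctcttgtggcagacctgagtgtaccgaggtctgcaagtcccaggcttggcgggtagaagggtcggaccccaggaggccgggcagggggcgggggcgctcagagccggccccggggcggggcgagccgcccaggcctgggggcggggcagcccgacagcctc
Hey2: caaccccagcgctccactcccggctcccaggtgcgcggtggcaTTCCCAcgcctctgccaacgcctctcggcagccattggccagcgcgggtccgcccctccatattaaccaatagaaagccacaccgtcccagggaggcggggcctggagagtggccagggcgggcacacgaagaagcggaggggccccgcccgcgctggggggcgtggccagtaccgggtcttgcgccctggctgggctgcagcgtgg
The core occurred in the upstream window of 0 of the 8 members with a sequence, in 12 of the 36 other pathway genes with a sequence, Hey2 and Rbpj among them, and in 21.6% of the 32851 promoters of the table. A gene with several promoters was counted if any of them matched, whereas the percentage is per promoter, so they are not a like measure. In Hey2 the match begins 207 bases upstream of the start. A match is only a match of letters, and its absence says nothing on binding outside these windows.

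Library totals ran from 15.7 to 36.5 M counts with a median of 22.7 M. Levels are counts per M library counts (CPM) on library sizes scaled by the trimmed mean of M values (TMM), as mean ± SD over libraries. Changes are log2 fold changes of bleomycin minus saline with their standard error (SE), from edgeR's quasi-likelihood test within a fraction, and a gene was called at a Benjamini-Hochberg adjusted p under 0.05. Each p measures the spread between these libraries. In sorted bulk samples, fewer cells of a type and less RNA per cell cannot be told apart. The 12 endothelial genes used to check the sort summed to between 15816 and 22598 CPM in CD31+ libraries and to between 214 and 1087 CPM in CD45+ libraries, so endothelial transcripts were present at a low level outside their own fraction.

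**Figure D1:**
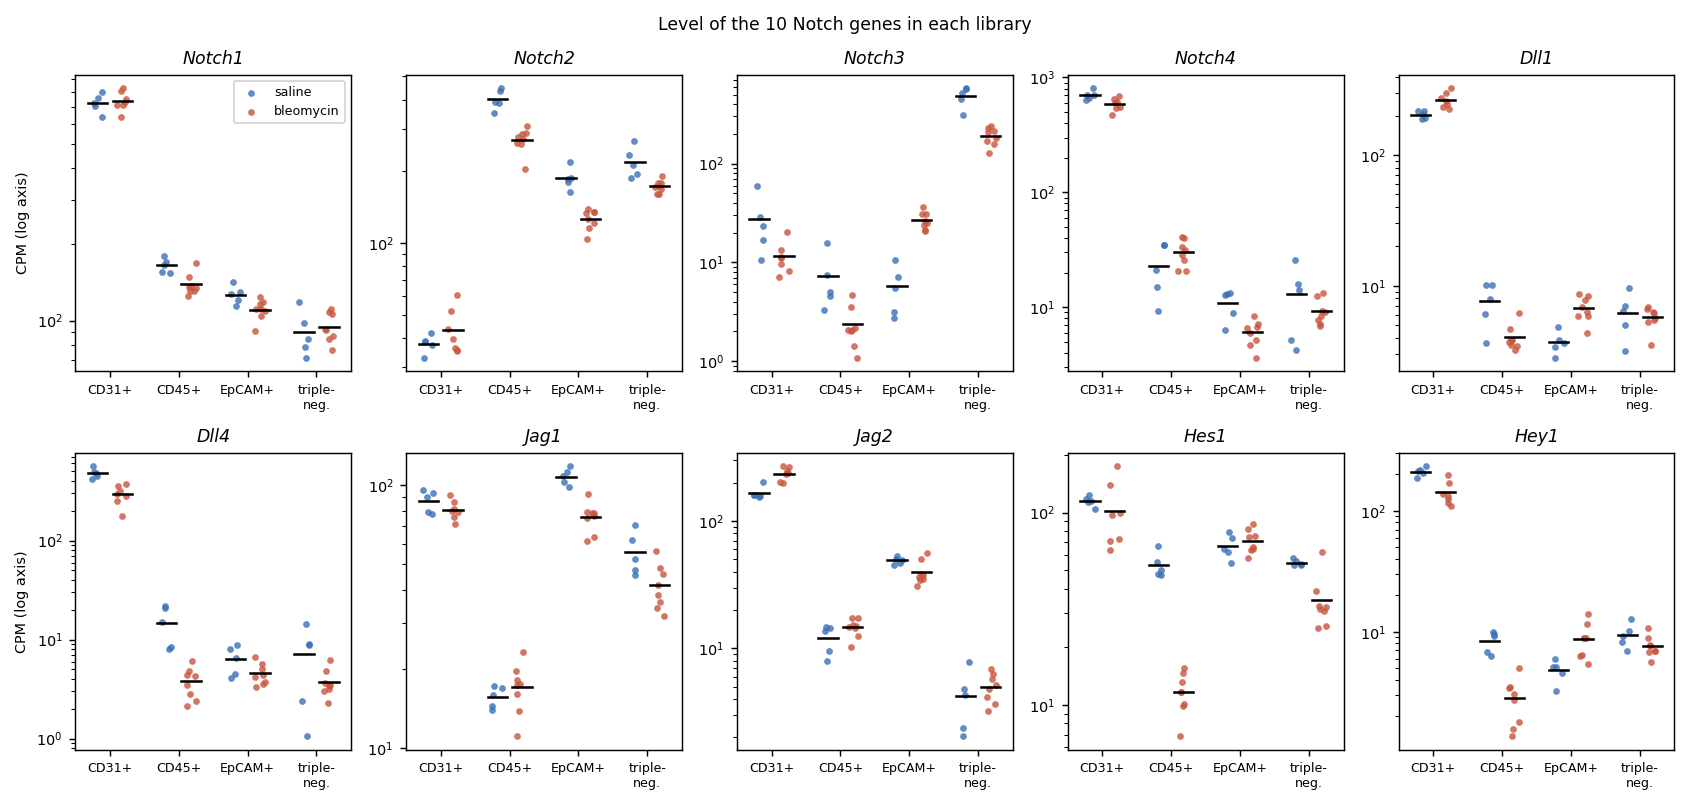
Level of each of the 10 genes in every library, in CPM on a log axis, by sorted fraction, with saline in blue, bleomycin in red and black bars for group means. Notch4, Dll1, Dll4 and Hey1 were far higher in CD31+ than elsewhere, Notch3 was highest in triple-negative libraries, and Notch3 in EpCAM+ libraries stood higher in all 8 bleomycin libraries than in the 5 saline libraries.

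Among the receptors in saline lungs, Notch1 and Notch4 were highest in CD31+, Notch2 in CD45+ and Notch3 in triple-negative libraries. Notch1, the receptor with the broadest known use, averaged 726 ± 59.6 CPM in CD31+, 165 ± 10.5 in CD45+, 127 ± 10.7 in EpCAM+ and 90.3 ± 18.8 in triple-negative libraries (SD, n = 5 each). Every step of that order passed the test, the smallest being CD45+ over EpCAM+ (0.38 ± 0.10 on the log2 scale, edgeR adjusted p = 6.7e-04). Notch4, a receptor known mainly from endothelium, averaged 704 ± 65.9 CPM in CD31+ and between 10.9 and 23.1 CPM elsewhere. In all, 22 of 30 neighbouring steps of the 10 genes passed in saline and 25 of 30 in bleomycin libraries. These steps join levels next to each other in a gene's own order. The shares of all genes given next are for fixed pairs of fractions at any distance in that order, so they are not a like measure. Between saline fractions 72.5% of all genes passed for CD45+ against CD31+, 72.8% for EpCAM+ against CD31+, 67.7% for triple-negative against CD31+, 78.4% for EpCAM+ against CD45+, 79% for triple-negative against CD45+ and 73.1% for triple-negative against EpCAM+. The shares between bleomycin fractions were 75.5%, 76.9%, 68.5%, 80.7%, 80.2% and 74.6% in that order. The triple-negative and EpCAM+ levels of Notch4 did not differ beyond their spread (0.26 ± 0.31, adjusted p = 0.47).

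Notch2, which B cells and myeloid cells are known to use, was highest in CD45+ at 402 ± 39.5 CPM and lowest in CD31+ at 37.8 ± 3.18 CPM. Between these lay the triple-negative (219 ± 32.1 CPM) and EpCAM+ (187 ± 20.3 CPM) levels, which were not told apart (0.23 ± 0.11, adjusted p = 0.0644), though DESeq2 (0.0364) and 14 of 51 fits with 1 library left out did so. Notch3, the receptor of pericytes and vascular smooth muscle, averaged 486 ± 113 CPM in triple-negative libraries and 27.8 ± 19.1 CPM in CD31+ libraries, a log2 difference of 4.13 ± 0.39 (adjusted p = 4.2e-13). Its CD45+ (7.22 ± 4.98 CPM) and EpCAM+ (5.83 ± 3.18 CPM) levels were lowest and not told apart (adjusted p = 0.461).

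Read per kilobase of exon, so that genes of unequal length can be set side by side, each fraction had a receptor mix of its own. In saline CD31+ libraries Notch4 made up 56.1 ± 2.64% and Notch1 40.2 ± 1.73% of the summed level of the 4 receptors. Notch2 held the largest share in CD45+ (63.6 ± 4.83%) and in EpCAM+ (53.1 ± 2.98%), and Notch3 in triple-negative libraries (64.6 ± 4.48%). After bleomycin the mean share of Notch3 in EpCAM+ libraries was 12 ± 2.05% against 2.10 ± 0.94% in saline, and its share in triple-negative libraries was 45.7 ± 4.81%. The saline and bleomycin ranges of these shares did not overlap in either fraction.

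**Figure D2:**
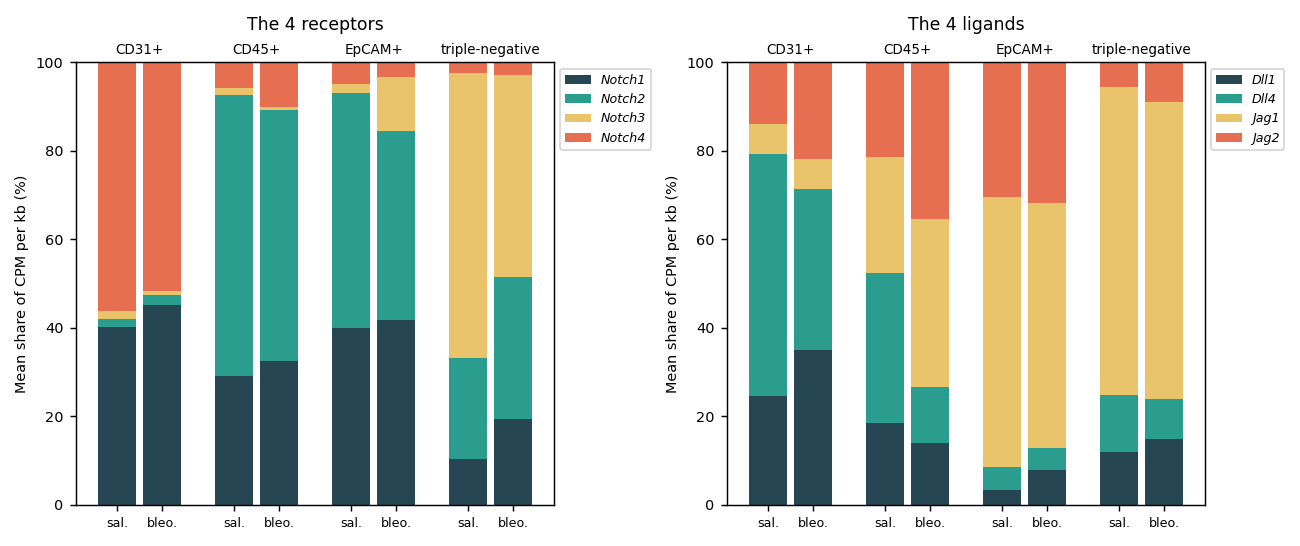
Mean share of each receptor (left) and each ligand (right) in the summed CPM per kilobase of exon of its 4 genes, in percent, by fraction and treatment (sal., saline; bleo., bleomycin). The Notch3 part of the receptor bars is larger in EpCAM+ (2.10% to 12%) and smaller in triple-negative libraries (64.6% to 45.7%) after bleomycin, and the Dll4 part of the CD31+ ligand bar is smaller (54.8% to 36.4%).

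Notch3 had the largest bleomycin effect of the receptors and moved in opposite directions in EpCAM+ and triple-negative libraries. In EpCAM+ libraries it was at 10.5, 3.17, 5.55, 2.75 and 7.18 CPM in the 5 saline libraries and ran from 21 to 36.5 CPM with a median of 25.7 in the 8 bleomycin libraries. The groups did not overlap, which held for 35.8% of all genes tested in this fraction, and Notch3 rose by 2.22 ± 0.28 on the log2 scale (adjusted p = 1.4e-05). In triple-negative libraries the saline values were 455, 515, 574, 582 and 307 CPM, and the bleomycin values ran from 128 to 238 CPM with a median of 196. Every bleomycin library lay below every saline library, as for 29.3% of all genes without overlap in this fraction, and the log2 change was -1.33 ± 0.16 (adjusted p = 1.3e-05).

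The rise in EpCAM+ libraries held within both column blocks of the deposited table, which lists its libraries in 2 runs with both treatments in each, at 2.98 in the first and 2 in the second. The 6 pericyte genes summed to a median of 6.46 CPM in saline and 6.97 CPM in bleomycin EpCAM+ libraries, and the 6 smooth muscle genes to 24.3 and 21.6 CPM. Set against the triple-negative level of the same treatment, Notch3 in EpCAM+ libraries stood at 1.20% in saline and 14.2% in bleomycin lungs, the summed pericyte genes at 0.81% and 1.68%, and the summed smooth muscle genes at 0.33% and 0.557%. In the same libraries, where 31.2% of all genes tested rose, 3 of 4 basal cell genes, 4 of 4 airway secretory genes and 5 of 6 ciliated cell genes did so. The medians of their summed levels were 9.80 and 18.8 CPM, 9743 and 33540 CPM, and 586 and 833 CPM in saline and bleomycin, and 3 of 4 alveolar type I genes (2280 and 3171 CPM) and 6 of 6 cell cycle genes (33.2 and 222 CPM) rose too. Of the 12 epithelial genes used to check the sort, 5 rose and 3 fell. Their summed level had medians of 117933 CPM in saline and 63007 CPM in bleomycin EpCAM+ libraries. Of the 12 mesenchymal genes used for the same check, 4 rose and 2 fell in EpCAM+ libraries. Their summed level ran from 119 to 173 CPM with a median of 133 in saline and from 95.9 to 968 CPM with a median of 345 in bleomycin, or 0.363% and 0.561% of the triple-negative level. The part of these epithelial, cycling and mesenchymal genes in the Notch3 rise was not tested.

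Beside the fall in triple-negative libraries, 5 of 6 pericyte genes fell, with medians of the summed level of 778 CPM in saline and 438 CPM in bleomycin. Of the 6 smooth muscle genes 3 fell, with medians of 7124 and 4220 CPM, and the part of either cell type in the Notch3 fall was not tested. Notch3 also fell in CD31+ libraries (27.8 ± 19.1 to 11.5 ± 4.28 CPM; -1.29 ± 0.37, adjusted p = 0.0129) and in CD45+ libraries (7.22 ± 4.98 to 2.38 ± 1.19 CPM; -1.55 ± 0.39, adjusted p = 0.00405). In both fractions the groups overlapped. The highest saline CD31+ value, 59.6 CPM in library Saline_CD31_650, came with the highest summed smooth muscle level of the CD31+ libraries, 487 CPM, and 5 of 6 smooth muscle genes fell in this fraction. Of the 6 pericyte genes 1 rose and 1 fell in CD31+ libraries, with medians of the summed level of 22.5 CPM in saline and 32.5 CPM in bleomycin. As a share of the triple-negative level of the same treatment, Notch3 in CD31+ stood at 5.72% and 6.04%, the pericyte genes at 3.43% and 7.7% and the smooth muscle genes at 3.3% and 1.93%, and the part of mural cells in this fall was not tested. In CD45+ libraries that share was 1.48% and 1.25% for Notch3, 1.52% and 12% for the pericyte genes and 0.768% and 2.47% for the smooth muscle genes. The part of mural cells in the CD45+ fall was not tested either. Leaving out single libraries moved the log2 change between -1.50 and -0.80 in CD31+ and between -1.82 and -1.04 in CD45+ without ending either call. Within the first column block neither fall was called (-0.66, adjusted p = 0.177 in CD31+, and -0.77, adjusted p = 0.329 in CD45+). Within the second both were, each at -1.88 (adjusted p = 0.025 and 0.00584).

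Notch2 fell in 3 fractions and was not called in CD31+ (37.8 ± 3.18 and 43.1 ± 9.63 CPM; 0.17 ± 0.14, adjusted p = 0.324). In CD45+ libraries its saline values were 389, 435, 350, 447 and 386 CPM and its bleomycin values ran from 204 to 310 CPM with a median of 276. These groups did not overlap, which held for 31.5% of all genes tested in CD45+, and the log2 change was -0.52 ± 0.09 (adjusted p = 1.8e-04). In EpCAM+ libraries the saline values were 219, 180, 163, 187 and 186 CPM against 104 to 139 CPM with a median of 130 in bleomycin, again without overlap (-0.56 ± 0.08, adjusted p = 1.4e-05). The fall in triple-negative libraries was smaller (219 ± 32.1 to 173 ± 10 CPM; -0.32 ± 0.08, adjusted p = 0.00292) and the groups overlapped. In CD45+ libraries 5 of 5 T cell genes and 5 of 5 B cell genes fell and 6 of 6 macrophage genes rose. The medians of the summed levels were 583 and 320 CPM for T cell, 1136 and 410 CPM for B cell and 691 and 2825 CPM for macrophage genes in saline and bleomycin, and their part in the Notch2 fall was not tested. Nor was the part of the epithelial levels given with Notch3 in the EpCAM+ fall of Notch2.

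Notch1 changed little. In CD31+ libraries, where it was highest, it averaged 740 ± 64.1 CPM in bleomycin, and the log2 change was 0.01 ± 0.07 (adjusted p = 0.942). It fell by small amounts in CD45+ (165 ± 10.5 to 139 ± 13.9 CPM; -0.20 ± 0.07, adjusted p = 0.0289) and EpCAM+ libraries (127 ± 10.7 to 111 ± 10 CPM; -0.19 ± 0.07, adjusted p = 0.0255). Leaving out 1 library ended the CD45+ call in 4 of 13 fits (without Bleomycin_CD45_612, Bleomycin_CD45_615, Saline_CD45_644 or Saline_CD45_646, adjusted p 0.0541 to 0.0793) and the EpCAM+ call in 2 of 13 fits (without Saline_EpCAM_654 or Saline_EpCAM_658, 0.051 to 0.0887). The fit of all 51 libraries did not call the EpCAM+ change (0.0712), nor the fit with no filter on low counts the CD45+ change (0.0649). Notch4 fell in CD31+ libraries (704 ± 65.9 to 591 ± 73.4 CPM; -0.27 ± 0.09, adjusted p = 0.0249), a call lost without Bleomycin_CD31_620, Bleomycin_CD31_622 or Saline_CD31_653 (0.0589 to 0.0767) and in the fit of all 51 libraries (0.484). It also fell in EpCAM+ libraries (10.9 ± 3.16 to 6.04 ± 1.52 CPM; -0.84 ± 0.20, adjusted p = 0.0019), where 8 of 12 endothelial genes fell and their summed median was 502 CPM in saline and 346 CPM in bleomycin. Notch4 was not called in CD45+ (23.1 ± 11.6 and 30.2 ± 7.92 CPM; 0.44 ± 0.29, adjusted p = 0.22) or triple-negative libraries (13 ± 8.74 and 9.28 ± 2.41 CPM; -0.46 ± 0.36, adjusted p = 0.291). In triple-negative libraries its log2 change was -1.03 in the first column block and 1.08 in the second, each called, and Notch1 was not called there (0.09 ± 0.12, adjusted p = 0.539). Within the first and second block, Notch4 changed by 1.44 and -0.02 in CD45+ libraries (adjusted p = 0.0116 and 0.95). In EpCAM+ libraries Notch4 changed by -0.28 and -1.16 (adjusted p = 0.322 and 0.00281).

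**Figure D3:**
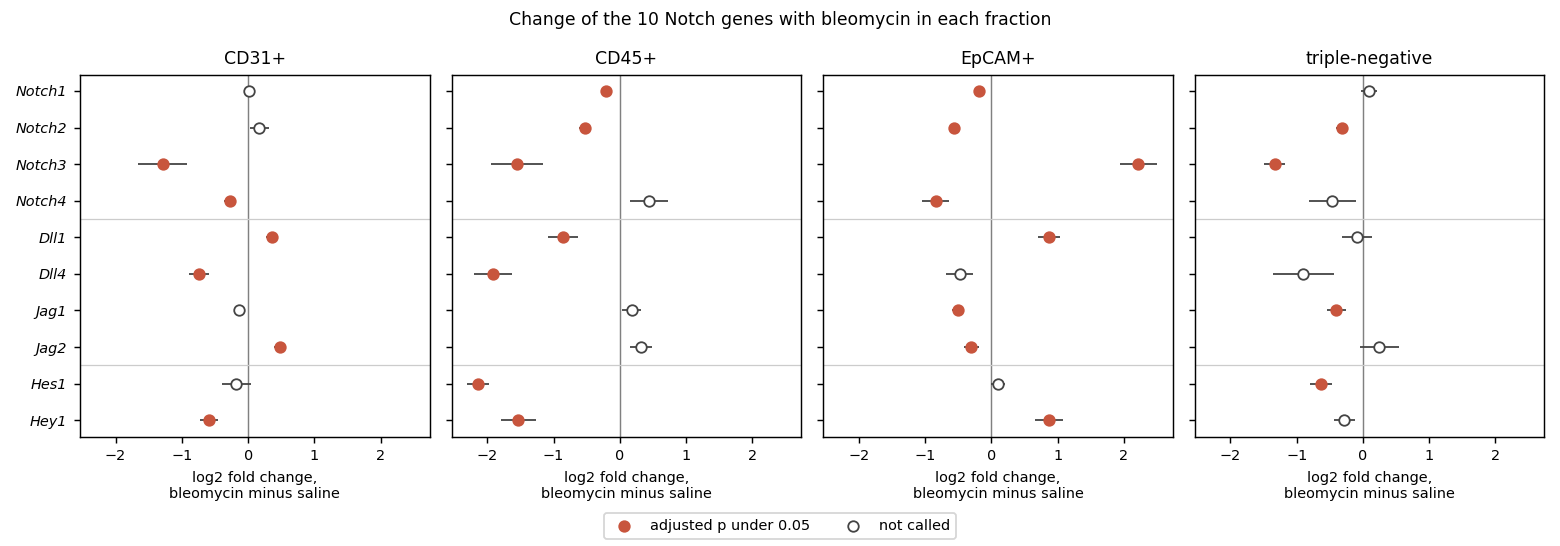
Log2 fold change of each gene, bleomycin minus saline, with its SE as a horizontal bar, in each fraction; filled points passed an adjusted p under 0.05 and open points did not. Notch3 lies at 2.22 in EpCAM+ and at -1.33 in triple-negative libraries, and Hes1 at -2.14 in CD45+ but at 0.10 in EpCAM+ libraries.

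Among the ligands, 3 of 4 were highest in CD31+ libraries of saline lungs. Dll4, the ligand known for tip-cell selection and arterial identity, averaged 480 ± 53.5 CPM in CD31+ and 14.8 ± 6.54 CPM in CD45+, the next fraction (5.01 ± 0.39 on the log2 scale, adjusted p = 5.9e-16). Dll1, a Delta-like ligand known for driving Notch2 in marginal zone B cells, averaged 205 ± 13.7 CPM in CD31+ and between 3.71 and 7.62 CPM elsewhere. Jag2 averaged 167 ± 20.7 CPM in CD31+, 49.0 ± 3.11 in EpCAM+, 12.1 ± 3.11 in CD45+ and 4.24 ± 2.29 in triple-negative libraries, and each step passed the test. Jag1, a ligand of both endothelium and epithelium, was the exception with 108 ± 7.69 CPM in EpCAM+ and 87.3 ± 8.30 CPM in CD31+ libraries (0.31 ± 0.13, adjusted p = 0.0356), a step lost in 10 of 51 fits with 1 library left out (0.0504 to 0.11). After bleomycin those levels were 75.5 ± 9.76 and 80.6 ± 6.80 CPM and did not differ beyond their spread (adjusted p = 0.433).

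In CD31+ libraries bleomycin moved the ligands in both directions: Dll4 fell while Dll1 and Jag2 rose. Dll4 was at 475, 497, 418, 451 and 561 CPM in saline and ran from 177 to 371 CPM with a median of 293 in the 7 bleomycin libraries. The groups did not overlap, which held for 26.1% of all genes tested in CD31+, and the log2 change was -0.74 ± 0.15 (adjusted p = 0.00142). Dll1 was at 193, 218, 206, 217 and 188 CPM in saline and ran from 224 to 327 CPM with a median of 260 in bleomycin, without overlap (0.36 ± 0.09, adjusted p = 0.00492). Jag2 was at 158, 204, 155, 160 and 160 CPM in saline and ran from 200 to 269 CPM with a median of 238 in bleomycin (0.48 ± 0.09, adjusted p = 0.00108). The Jag2 groups met only at library Saline_CD31_650, whose 204 CPM stood apart from the other 4. Jag1 averaged 87.3 ± 8.30 and 80.6 ± 6.80 CPM and was not called (-0.14 ± 0.07, adjusted p = 0.126).

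Markers of several cell types and states moved in the same CD31+ libraries. Of 5 lymphatic genes 4 rose, among them Prox1 (2.51 ± 0.37, adjusted p = 1.9e-04), the transcription factor of lymphatic identity. Mmrn1 (63.9 to 299 CPM) and Reln (36.1 to 151 CPM) rose too, and 1 gene, Lyve1, fell (1316 to 850 CPM). The summed level, in which Lyve1 was the most abundant gene, had medians of 1683 CPM in saline and 1758 CPM in bleomycin. All 6 cell cycle genes rose (19.6 and 383 CPM), as did 9 of 12 leukocyte genes (201 and 378 CPM). Of 6 arterial genes 3 rose and 3 fell, and of 4 tip-cell genes Esm1 fell (-2.94 ± 0.27, adjusted p = 5.4e-06), with summed tip-cell medians of 272 and 220 CPM. Library Bleomycin_CD31_621, which had the lowest Dll4 value, also had the lowest summed endothelial level, 15816 CPM, and a summed epithelial level of 5202 CPM against 100 to 877 CPM in the other CD31+ libraries. Without it the log2 changes were -0.65 for Dll4, 0.39 for Dll1, 0.47 for Jag2 and -0.59 for Hey1, and each was still called (adjusted p 3.1e-04 to 0.00507). The part of these cell types and states in the changes of the ligands and of Hey1 was not tested.

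Per kilobase of exon, Dll4 made up 54.8 ± 3.43% of the 4 ligands in saline CD31+ libraries and 36.4 ± 6.53% in bleomycin CD31+ libraries. Dll1 went from 24.5 ± 2.31% to 35.0 ± 3.51% and Jag2 from 14.0 ± 1.22% to 21.9 ± 3.19%, while Jag1 stood at 6.67 ± 0.64% and 6.77 ± 0.58%. None of the 3 calls was lost when any 1 library was left out. Within the second column block Dll1 (0.23, adjusted p = 0.184) and Jag2 (0.31, adjusted p = 0.175) were not called. Dll4 was called within each block (-0.92 and -0.59, adjusted p = 0.0345 and 0.0287). In the fit of all 51 libraries, which shares 1 estimate of the spread over the fractions, Dll1 (0.38, adjusted p = 0.0818) and Dll4 (-0.72, adjusted p = 0.051) were not called. Dll4 overlaps Gm14207, a gene on the opposite strand that was counted too, at 44.2 ± 4.55 CPM in saline and 25.0 ± 5.76 CPM in bleomycin CD31+ libraries (-0.84, adjusted p = 5.0e-04). Whether the counting used strand is not given in the sources used here, so reads of Dll4 and Gm14207 may not be told apart.

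In EpCAM+ libraries Jag1 fell, from 108, 112, 103, 98.1 and 118 CPM in saline to between 61.4 and 92.7 CPM with a median of 77.1 in bleomycin. The groups did not overlap (-0.51 ± 0.08, adjusted p = 5.4e-05). The epithelial levels given with Notch3 moved in the same libraries, and their part in the Jag1 fall was not tested. Jag1 kept the largest ligand share per kilobase in this fraction, at 60.9 ± 2.40% in saline and 55.4 ± 3.40% in bleomycin. Dll1 rose from a low level, 3.71 ± 0.73 to 6.75 ± 1.45 CPM (0.87 ± 0.17, adjusted p = 3.7e-04), and its groups overlapped. Jag2 averaged 49.0 ± 3.11 and 39.7 ± 8.56 CPM (-0.30 ± 0.12, adjusted p = 0.0436), a call that was lost in 10 of 13 fits with 1 library left out (0.0605 to 0.0904), with no filter on low counts (0.0656) and in the fit of all 51 libraries (0.159). Dll4, at 6.36 ± 2.06 and 4.55 ± 1.14 CPM, missed the threshold (-0.48 ± 0.20, adjusted p = 0.0545) and passed it by DESeq2 (adjusted p = 0.046).

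In triple-negative libraries the ligand with the largest share per kilobase was again Jag1 (69.6 ± 15.4% in saline, 67.0 ± 7.07% in bleomycin), and it fell from 55.7 ± 10.6 to 41.6 ± 8.20 CPM (-0.40 ± 0.14, adjusted p = 0.0229). That call was lost without Saline_Negative_660 or Saline_Negative_662 (0.0603 to 0.08). Dll4 had a larger but more scattered difference there, with saline values of 8.78, 2.38, 14.4, 1.06 and 9.10 CPM against 2.28 to 6.19 CPM with a median of 3.46 in bleomycin, and was not called (-0.90 ± 0.46, adjusted p = 0.113), but was in the fit of all 51 libraries (-0.91, adjusted p = 0.0206). Its direction turned between the column blocks, at -1.55 in the first (adjusted p = 3.9e-04) and 1.23 in the second (adjusted p = 0.106). Leaving out single libraries moved it between -1.17 and -0.47, and it was called without Saline_Negative_660 (0.0463) or Saline_Negative_662 (0.013). The low saline values were those of libraries Saline_Negative_660 and Saline_Negative_662, whose summed endothelial genes, 438 and 387 CPM, were the lowest of the 5 saline libraries, the highest reaching 1050 CPM. Dll1 (6.23 ± 2.37 and 5.75 ± 1.06 CPM; -0.09 ± 0.22, adjusted p = 0.744) and Jag2 (4.24 ± 2.29 and 4.96 ± 1.28 CPM; 0.25 ± 0.29, adjusted p = 0.482) were low in this fraction and not called. Within the first and second block Jag2 changed by -0.21 (adjusted p = 0.562) and 1.28 (adjusted p = 0.015), and Dll1 by -0.36 and 0.47 (adjusted p = 0.0962 and 0.329).

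In CD45+ libraries Dll4 was at 20.9, 8.47, 15.1, 8.02 and 21.7 CPM in saline and ran from 2.15 to 6.09 CPM with a median of 3.86 in bleomycin, without overlap (-1.91 ± 0.29, adjusted p = 7.6e-05). Dll1 fell from 7.62 ± 2.81 to 4.05 ± 0.98 CPM (-0.86 ± 0.23, adjusted p = 0.00481). Within the column blocks the Dll1 change was -0.17 in the first (adjusted p = 0.732) and -1.22 in the second (adjusted p = 6.9e-04). Both ligands stood there at the level of the endothelial genes: Dll4 at 3.09% of its CD31+ level in saline and 1.30% in bleomycin, Dll1 at 3.72% and 1.52%, and the 12 summed endothelial genes at 3.44% and 1.59%. Of these 12 genes 11 fell in CD45+ libraries, with summed levels from 416 to 1087 CPM in saline and from 214 to 432 CPM in bleomycin, and their part in the falls of Dll4 and Dll1 was not tested. Jag1 (15.7 ± 1.46 and 17.1 ± 3.63 CPM) and Jag2 (12.1 ± 3.11 and 14.6 ± 2.34 CPM) were not called in this fraction (0.18 ± 0.14, adjusted p = 0.307, and 0.32 ± 0.16, adjusted p = 0.0992). Jag2 was called higher within the first block (0.82, adjusted p = 0.00903) and not within the second (0.05, adjusted p = 0.838).

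**Figure D4:**
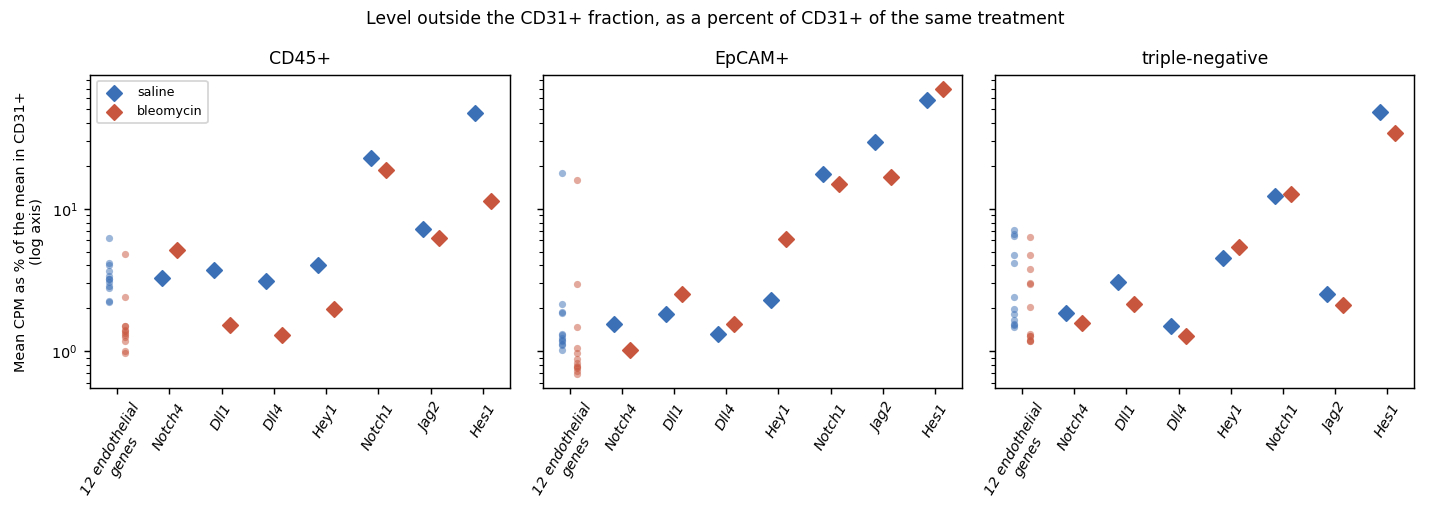
Mean CPM in the CD45+, EpCAM+ and triple-negative fractions as a percent of the mean in CD31+ libraries of the same treatment, on a log axis; small points are the 12 endothelial genes used to check the sort, diamonds are Notch genes, blue is saline and red is bleomycin. In CD45+ libraries Dll4 (3.09% and 1.30%), Dll1 (3.72% and 1.52%) and Hey1 (4% and 1.98%) lie among the endothelial genes, while Hes1 (46.8% and 11.4%) lies above them.

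The target genes Hes1 and Hey1 encode basic helix-loop-helix repressors, and other pathways are known to act on Hes1 as well. Hey1 was highest in CD31+ libraries at 211 ± 17.1 CPM in saline and between 4.81 and 9.47 CPM elsewhere. Hes1 was spread more evenly, with 114 ± 6.74 CPM in CD31+, 66.9 ± 9.66 in EpCAM+, 54.8 ± 2 in triple-negative and 53.4 ± 8.06 in CD45+ saline libraries. Of its steps the CD31+ over EpCAM+ difference passed the test (0.77 ± 0.20, adjusted p = 7.4e-04), and the other levels did not differ beyond their spread (adjusted p 0.2 and 0.879). After bleomycin every step in the Hes1 order passed, and CD45+ was lowest at 11.7 ± 2.79 CPM.

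The Hes1 change in CD45+ libraries was the largest fall of any member in any fraction after bleomycin. Its saline values were 47.8, 47.2, 50.4, 66.7 and 55.2 CPM and its bleomycin values ran from 6.87 to 15.5 CPM with a median of 11.6. The groups did not overlap and the log2 change was -2.14 ± 0.16 (adjusted p = 7.6e-08), with -2.13 and -2.19 within the column blocks. Hes1 in this fraction stood at 46.8% of its CD31+ level in saline and 11.4% in bleomycin, and the summed endothelial genes at 3.44% and 1.59%. The T cell, B cell and macrophage levels given with Notch2 moved in the same libraries, and their part in the Hes1 fall was not tested. Hey1 fell there too, from 10, 6.83, 9.63, 6.34 and 9.27 CPM to between 1.37 and 5.06 CPM with a median of 2.90, without overlap (-1.53 ± 0.27, adjusted p = 2.3e-04). Hey1 stood at 4% of its CD31+ level in saline and 1.98% in bleomycin. The part of endothelial transcripts in the falls of Hes1 and Hey1 was not tested.

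In CD31+ libraries Hey1 fell, from 186, 213, 204, 233 and 217 CPM to between 109 and 199 CPM with a median of 133 (-0.59 ± 0.13, adjusted p = 0.00278). Bleomycin_CD31_623, at 199 CPM, was the only bleomycin value above the lowest saline value. Hes1 in CD31+ was more scattered after bleomycin, running from 63.8 to 174 CPM with a median of 96.6 against 104 to 123 CPM in saline, and was not called (-0.18 ± 0.22, adjusted p = 0.53). In EpCAM+ libraries Hey1 rose from 4.81 ± 1.02 to 8.77 ± 2.86 CPM (0.87 ± 0.21, adjusted p = 0.00246), whereas Hes1 stood at 66.9 ± 9.66 and 71.6 ± 10.2 CPM (0.10 ± 0.10, adjusted p = 0.401). In triple-negative libraries Hes1 was at 55.7, 53.4, 53.8, 57.9 and 53.2 CPM in saline and ran from 25.0 to 62.7 CPM with a median of 31.8 in bleomycin (-0.63 ± 0.17, adjusted p = 0.00664). All but Bleomycin_Negative_638 lay below the saline values, and Hey1 was not called (9.47 ± 2.22 and 7.69 ± 1.57 CPM; -0.28 ± 0.16, adjusted p = 0.157).

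Counted over the 10 genes, 2 rose and 4 fell in CD31+, 0 rose and 7 fell in CD45+, 3 rose and 5 fell in EpCAM+, and 0 rose and 4 fell in triple-negative libraries. Of all genes tested, 48.8%, 55.3%, 60.2% and 55.4% were called in these fractions in either direction, so shares of 6, 7, 8 and 4 of 10 are not a result about the members as a set. Falls made up 24.6%, 26.8%, 28.9% and 27.7% of all genes tested and rises 24.2%, 28.4%, 31.2% and 27.7%. The median log2 change of the 10 genes was -0.16, -0.69, -0.24 and -0.36, and that of all genes was between -0.01 and 0.02. Of the 25 member calls, 20 held whichever library was left out, and all 25 had the same sign in both column blocks. The blocks hold the same libraries that gave the calls, so a shared sign is not separate support. Many calls were lost within 1 block or the other, each of which holds fewer libraries. Those lost in the first block included Dll1 in CD45+ (-0.17, adjusted p = 0.732) and Notch1 in EpCAM+ libraries (-0.07, adjusted p = 0.544). Those lost in the second block included Hes1 in triple-negative (-0.37, adjusted p = 0.43) and Jag2 in EpCAM+ libraries (-0.15, adjusted p = 0.464). Notch4 in CD31+ and Notch1 in CD45+ libraries were called in neither block.

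The bleomycin effect differed between the fractions for 9 of the 10 genes in a test over all 51 libraries, as it did for 64.3% of all genes. Hes1 (adjusted p = 9.5e-10), Notch3 (8.5e-09) and Hey1 (1.0e-07) had the smallest values, and Notch1 was not called (0.0599). With 1 library left out, the call was lost in 12 of 51 fits for Notch4, 8 for Jag2 and 2 for Dll4 (Saline_CD45_644 or Saline_CD45_648), and Notch1 was called in 6. The fit with no filter on low counts did not call Notch4 (0.0654) or Jag2 (0.0734). Of all genes, 38.2% differed between CD45+ and CD31+, 26.6% between EpCAM+ and CD31+, 25.3% between triple-negative and CD31+, 38.8% between EpCAM+ and CD45+, 37.4% between triple-negative and CD45+ and 31.3% between triple-negative and EpCAM+. The Notch3 effect in EpCAM+ exceeded that in CD31+ by 3.48 ± 0.48, that in CD45+ by 3.83 ± 0.50 and that in triple-negative libraries by 3.56 (triple-negative minus EpCAM+ -3.56 ± 0.46, adjusted p = 5.7e-08). The Hes1 effect in CD45+ was below that in CD31+ by 2.04 (-2.04 ± 0.27, adjusted p = 3.2e-08), and EpCAM+ exceeded CD45+ by 2.29 ± 0.26 and triple-negative exceeded CD45+ by 1.54 ± 0.26. For Hey1 the EpCAM+ effect exceeded each other fraction's, by 1.44 ± 0.29 over CD31+, by 2.46 ± 0.31 over CD45+ and by 1.16 over triple-negative libraries (triple-negative minus EpCAM+ -1.16 ± 0.30, adjusted p = 0.00229). The Notch2 effect in CD31+ lay above that in CD45+, EpCAM+ and triple-negative libraries, whose effects minus that of CD31+ were -0.76 ± 0.15, -0.75 ± 0.15 and -0.53 ± 0.15 (adjusted p = 3.8e-05, 8.3e-05 and 0.00518). The Dll4 effect was stronger in CD45+ than in CD31+ by 1.25 (-1.25 ± 0.44, adjusted p = 0.022), while triple-negative and CD31+ were not told apart (-0.19 ± 0.45, adjusted p = 0.811). Dll4 in CD45+ libraries stood at 3.09% of its CD31+ level in saline and 1.30% in bleomycin. The summed endothelial genes stood at 3.44% and 1.59%, and Hey1 at 4% and 1.98%. The part of endothelial transcripts in these CD45+ effects was not tested.

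A further 47 pathway genes were listed by role and all were in the table. Of those tested, 5 rose and 13 fell of 41 in CD31+, 15 rose and 12 fell of 42 in CD45+, 11 rose and 15 fell of 43 in EpCAM+ and 9 rose and 19 fell of 43 in triple-negative libraries. Of all genes tested, 48.8%, 55.3%, 60.2% and 55.4% were called in either direction in these fractions, and the pathway's shares lay near them, so these counts are not a result about the pathway as a set. Of 4 or 5 further target and HES family genes tested, CD31+ and CD45+ libraries each had 1 that rose and 2 that fell, EpCAM+ libraries had 2 that rose, and triple-negative libraries had 1 that rose and 3 that fell. Nrarp, a feedback inhibitor that Notch itself induces, fell in CD45+ (25.1 to 5.45 CPM; -2.15 ± 0.17, adjusted p = 9.7e-08) and in triple-negative libraries (22.1 to 7.52 CPM; -1.53 ± 0.29, adjusted p = 5.0e-04). It rose in EpCAM+ libraries (7.97 to 21.6 CPM; 1.44 ± 0.16, adjusted p = 2.5e-06) and was not called in CD31+ (92.8 and 88.6 CPM; -0.09 ± 0.10, adjusted p = 0.495). Hey2, the Hey1 relative whose promoter is shown above, fell in CD31+ (5.54 to 2 CPM; -1.49 ± 0.24, adjusted p = 2.7e-04) and in triple-negative libraries (25.6 to 5.94 CPM; -2.08 ± 0.18, adjusted p = 9.0e-07) and was too low to test elsewhere. Heyl, another relative and at 293 CPM the most abundant of the list in triple-negative libraries, fell there by a small amount (-0.24 ± 0.09, adjusted p = 0.0421). Hes5, a classical target, was low in CD45+ and fell (0.745 to 0.281 CPM; -1.33 ± 0.32, adjusted p = 0.0023). Hes6, a HES family member that is known to counter Hes1, rose in all 4 fractions, by 0.94 ± 0.16 in EpCAM+ (39.5 to 75.6 CPM) and by 0.28 to 0.37 elsewhere.

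Of the receptor regulators, Dtx1, a Deltex ubiquitin ligase and known Notch target in lymphocytes, was called in every fraction and in both directions. It rose in CD31+ (1.47 ± 0.26, adjusted p = 5.8e-04) and EpCAM+ (1.73 ± 0.29, adjusted p = 8.9e-05) and fell in CD45+ (54.3 to 24.0 CPM; -1.13 ± 0.21, adjusted p = 5.0e-04) and triple-negative libraries (6.92 to 1.74 CPM; -1.97 ± 0.21, adjusted p = 4.1e-06). Its relative Dtx4 rose in CD45+ (29.2 to 70.7 CPM; 1.33 ± 0.15, adjusted p = 3.6e-06). In CD45+ libraries, where 28.4% of all genes tested rose, 8 of 9 genes of receptor cleavage did so, led by Adam10, the protease of the ligand-dependent cut (96.9 to 170 CPM; 0.86 ± 0.08, adjusted p = 3.5e-07). Adam10 rose in the other fractions too, by 0.39 to 0.61. Psen2, a gamma-secretase subunit, rose by 0.62 ± 0.09 in CD45+ and fell in CD31+ (89.3 to 48.0 CPM; -0.91 ± 0.08, adjusted p = 3.7e-06).

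Of the 10 genes of the nuclear complex, 7 fell and 1 rose in EpCAM+ libraries, where 28.9% of all genes tested fell and 31.2% rose. Maml3, a Mastermind-like coactivator, fell there from 83.0 to 39.5 CPM (-1.07 ± 0.11, adjusted p = 1.5e-06) and rose in triple-negative libraries (0.56 ± 0.10, adjusted p = 3.9e-04). Rbpj fell in EpCAM+ (-0.44 ± 0.08), triple-negative (-0.62 ± 0.08) and CD31+ libraries (-0.24 ± 0.08) and rose in CD45+ libraries (43.0 to 54.3 CPM; 0.39 ± 0.10, adjusted p = 0.00568). Kat2b, an acetyltransferase of the complex, fell in triple-negative libraries from 60.7 to 29.6 CPM (-1.02 ± 0.07, adjusted p = 1.6e-07). Of the 4 genes of ligand endocytosis, 1 rose and 1 fell in CD31+, 2 rose in CD45+, 2 rose and 2 fell in EpCAM+ and 1 rose and 2 fell in triple-negative libraries. Of all genes tested in these fractions, 24.2%, 28.4%, 31.2% and 27.7% rose and 24.6%, 26.8%, 28.9% and 27.7% fell. With 4 genes, these counts are not a result about ligand endocytosis. Neurl1a, a ubiquitin ligase, rose in all 4 fractions, by 0.46 to 1.4. Its relative Neurl1b rose in CD45+ (9.42 to 24.6 CPM; 1.44 ± 0.18, adjusted p = 1.3e-05), and Mib2 fell in CD31+ (83.3 to 49.2 CPM; -0.78 ± 0.07, adjusted p = 4.3e-06). The ligand-like gene Dlk1 fell in triple-negative libraries (2.21 to 0.29 CPM; -2.81 ± 0.39, adjusted p = 3.0e-05).

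**Figure D5:**
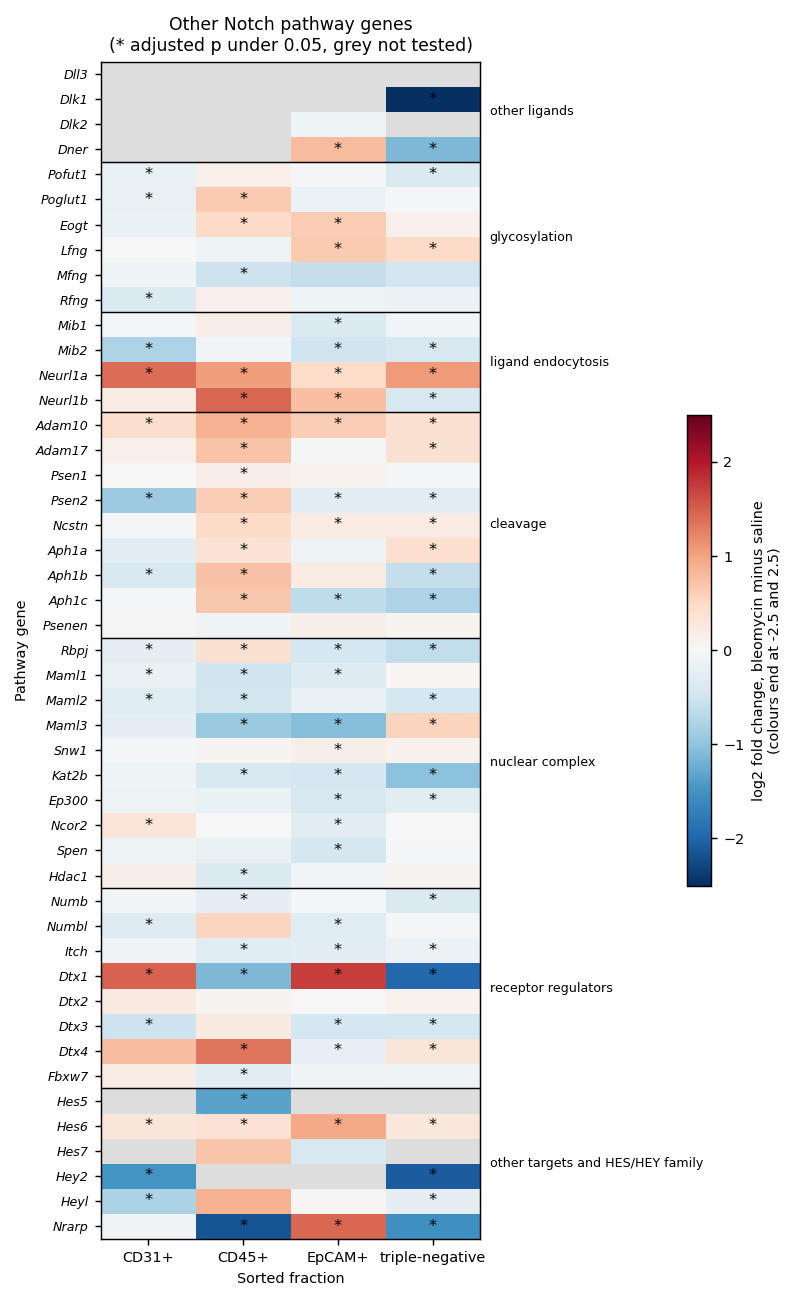
Log2 fold change, bleomycin minus saline, of the 47 other pathway genes (rows, grouped by role) in the 4 fractions (columns), red for higher and blue for lower, with colours ending at -2.5 and 2.5; an asterisk marks an adjusted p under 0.05 and grey a gene not tested. Adam10, Neurl1a and Hes6 are called higher in all 4 columns, Nrarp is blue in CD45+ and triple-negative and red in EpCAM+, and Dtx1 is red in CD31+ and EpCAM+ and blue in the other columns.

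The genes whose levels followed each member most closely over the 51 libraries were taken as the 3 with the highest Pearson correlation of log2 CPM among 15328 genes. The libraries share fractions, treatments and animals, so these values are a description. For Notch4 they were Clec1a (r = 0.993), Flt1 (0.989) and Cd93 (0.987), for Dll4 Myct1 (0.992), Ushbp1 (0.991) and Egfl7 (0.990), and for Dll1 Podxl (0.990), Nos3 (0.989) and Nova2 (0.988). Notch1 went with Pkn3 (0.980), Rasip1 and N4bp3 (both 0.978), Jag2 with Scarf1 (0.974), Pak4 (0.969) and Cd36 (0.967), and Hey1 with Pcdh1 (0.980), Rgs9 (0.971) and Palmd (0.970). Notch2 went with Parp8 (0.977), Chdh (0.955) and Glipr2 (0.950), and Notch3 with Gm38585 (0.975) and Chrd (0.961). Jag1, which was high in 2 fractions, went with Cilk1 (0.967), Plxna2 (0.961) and Gphn (0.960). Hes1 had no gene as close as the others had, the nearest being Vegfa (0.894), Efna1 (0.882) and Pitpnm2 (0.878).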

How the data were processed

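The authors deposited whole-number read counts per gene, per the file headers keyed by Entrez identifier, as 1 table of 51 libraries and 51 single files, which matched the table in 51 of 51 cases. The labels' protocols name the RNeasy kit for RNA and the TruSeq Stranded Total RNA kit for libraries, and the genome build is GRCm38, per the submitters' processing notes. Aligner, counting program, annotation and strand setting are not given in the sources used here. Identifiers were matched to symbols by RefSeq (31049) and GENCODE M21 (77), and exon lengths are the union of exons of protein-coding transcripts in GENCODE M21.

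Each fraction was fitted alone after filterByExpr and TMM scaling, and the two-sided quasi-likelihood F test of edgeR 4.0.16 (R 4.3.3, robust) compared the treatments, adjusted by Benjamini-Hochberg over all genes of the fraction. A fit of all 51 libraries with 8 group means tested differences between effects and between neighbouring levels. Levels use TMM factors of all 51 libraries, so a ratio of means can differ slightly from the fitted change. The script was tested on simulated data. Totals of 15.7 to 36.5 M counts were the depth, and intervals from replicates include counting error. Libraries were taken as independent. Alternatives were other size factors, other filters, DESeq2 1.42.0, the fit of all libraries, the 2 column blocks of the deposited table and leaving out each library. Patterns of likeness used log2(CPM + 0.5) and genes with a mean of at least 1 CPM. A gene of like pattern is not reported here. Named are all members, in each fraction the 4 other pathway genes with the largest called change, genes of a counted list, and markers set beside a member. The members and lists were chosen with earlier results of these data known.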

Additional observations from a re-analysis of the deposited data

Results flagged for a closer look

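Of 80 groups of 5, 7 or 8 libraries examined for a library far from the rest, 4 held one, and chance alone flags about 1 in 20 groups. Notch2 in library Bleomycin_CD45_613 was at 204 CPM, below the other 7 (260 to 310 CPM). That library also had a summed mesenchymal level of 7435 CPM, against 137 to 2217 CPM in the other bleomycin CD45+ libraries. Its summed smooth muscle level was 464 CPM, against 18.2 to 144 CPM, and their part in its Notch2 value was not tested. Dll1 in library Bleomycin_Negative_638 was at 3.51 CPM, and Hes1 in that same library was at 62.7 CPM, the value that overlaps the saline group. Jag2 in library Saline_CD31_650 was at 204 CPM, above the other 4 (155 to 160 CPM).

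The bleomycin effect differed between fractions, by the F test over the interaction terms of the edgeR fit of all 51 libraries, for Notch2 (adjusted p = 3.1e-05), Notch3 (8.5e-09), Notch4 (0.0403), Dll1 (3.3e-06), Dll4 (0.0197), Jag1 (0.00459), Jag2 (0.0347), Hes1 (9.5e-10) and Hey1 (1.0e-07), beside 64.3% of all genes. With no filter on low counts Notch4 (0.0654) and Jag2 (0.0734) were not called.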

How the results depend on the processing

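No paired analysis was possible because the replicate numbers of the labels are not shared between groups. With 1 library left out, the number of members that fell ran from 3 to 4 in CD31+, from 6 to 7 in CD45+, from 3 (without Saline_EpCAM_658) to 6 in EpCAM+ and stayed at 4 in triple-negative libraries, while the number that rose stayed at 2, 0, 3 and 0. The members called for a difference between fractions ran from 7 to 10, and neighbouring pairs told apart from 20 to 24 of 30 in saline and from 24 to 25 of 30 in bleomycin lungs. In the fit of all 51 libraries 1 member rose and 2 fell in CD31+, and 3 fell in EpCAM+. Size factors, filters and DESeq2 changed no count of members called by over 1.5 times. The within-block fits, added after seeing that the table's columns form 2 blocks, hold fewer libraries. In CD31+ all genes called were 3179 and 4222 in the first and second block in place of 7838, 1 member fell in the first and 0 rose in the second. In the first block of CD45+, 5684 of all genes were called, 2 members rose and 3 fell. In the first block of EpCAM+, 6140 genes were called and 3 members fell. In the second block of triple-negative libraries 5801 genes were called, 2 members rose and 2 fell. Notch4 in triple-negative libraries, not called in the pooled fit (-0.46), was lower in the first block (-1.03, adjusted p = 0.00517) and higher in the second (1.08, adjusted p = 0.0296); the cause was not tested. Low levels such as those of Dll4 outside CD31+ limit what the depth can show.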
